A study of Mus musculus with 13 samples.

Results

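The 39 genes described here are the core of glucose breakdown in the cell and of its response to low oxygen: glucose uptake and the glycolytic enzymes, the steps from pyruvate to lactate or to the mitochondrion, the hypoxia-inducible factors (HIF) with their regulators, and well-known HIF targets. They were picked by gene name, and all 39 were found among the 32285 genes measured. They were followed from crypt to surface, along the colon, in goblet cells and between conditions. The cells were sorted epithelial cells of whole colons, measured with a droplet assay that counts unique molecules (UMI) at the 3' end of transcripts. One group was wild type C57BL/6J mice given Antibiotic treatment (3 cDNA libraries, all batch 1), and the other was Germ-free C57BL/6J mice (2 cDNA libraries, all batch 2). The labels name neither the antibiotics nor the ages or number of mice. In both groups the mice of a condition were pooled, epithelium was loosened in EDTA and dissociated with Dispase II and DNase I in warm incubations, and CD44-positive (proliferative) and CD44-negative (differentiated) EPCAM-positive, CD45-negative cells were sorted in equal numbers. The sort therefore sets the shares of crypt and surface cells. Control mice and the 8 libraries of sample barcodes were not analysed here.

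Glycolysis splits glucose into pyruvate with a small yield of ATP, and lactate dehydrogenase turns pyruvate into lactate when the mitochondrion does not take it up. HIF factors pair an oxygen-labile alpha subunit with the stable subunit ARNT. With oxygen present, prolyl hydroxylases mark the alpha subunit for VHL and it is degraded, and with little oxygen it activates glycolytic genes and others. The colon epithelium lies next to a lumen nearly free of oxygen, and its surface cells, which also burn microbial butyrate, are known as a tissue in physiological hypoxia.

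The antibiotic pool held 3415 cells with a median of 6993 UMI and the germ-free pool 768 cells with a median of 2873.5 UMI. Medians ran from 6599 to 7420 UMI over antibiotic cell sets 1, 2 and 3 and were 1045 and 4681.5 UMI in germ-free cell sets 3 and 4, where a cell set is the numbered part of a condition in the cells' names. The germ-free numbers match no number in the library titles, so a cell set is not tied to a single library. In the antibiotic pool, 810 cell barcodes occurred in more than 1 cell set, which left 837 shallower copies with 3.40% of the UMI. Copies of 1 barcode were more alike than other cells of the same sets (median r of 0.50 against 0.37 for sets 1 and 2, 0.55 against 0.39 for sets 2 and 3, and 0.43 against 0.42 for sets 1 and 3), so these cell sets may share cells, and each count of members below is also given with the deepest copy of each barcode only. Epithelial markers (6 genes) summed to 6729 counts per 1000000 UMI (CPM) under antibiotics and 7104 CPM in the germ-free pool, and immune and stromal markers (10 genes) to 9.06 and 8.38 CPM, with 0 and 7 of the 10 at 0. Cells outside the goblet, enteroendocrine and tuft gates were ordered by surface over crypt marker UMI and cut into 5 zones, from zone 1 (crypt) to zone 5 (surface), with the same limits in both conditions; crypt zone and surface zone below mean zones 1 and 5. Of 3987 such cells, 823 lay within 0.25 log2 units of a limit. Each condition was 1 pool, so nothing was tested, and 95% intervals cover counting error only. A gene counted as measured with at least 100 UMI in the compared groups together, and the words higher and lower are used only of a measured gene at least 1.5-fold apart in CPM + 1 with every cell set in that direction.

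From crypt to surface, the antibiotic pool showed more RNA of every enzyme of lower glycolysis, of Ldha and the lactate transporter Slc16a1, and of most HIF targets, while Hif1a, Epas1 and their partner Arnt were not higher. Lower glycolysis here means the steps from the aldolase Aldoa to the pyruvate kinase Pkm, so Aldoa and Tpi1 are counted there and not with upper glycolysis. Of 35 members measured, 21 were higher in the surface zone than in the crypt zone and 5 were lower. Over all 8850 genes measured, 24.3% were higher and 46.7% lower. The median log2 ratio of CPM + 1 was 1.26 for the members and -0.49 for all genes. All 7 members of lower glycolysis were higher, as were 4 of 7 measured members of uptake and upper glycolysis, 3 of 7 of the lactate and pyruvate steps, 1 of 6 HIF factors and regulators, and 6 of 8 HIF targets.

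**Figure D1:**
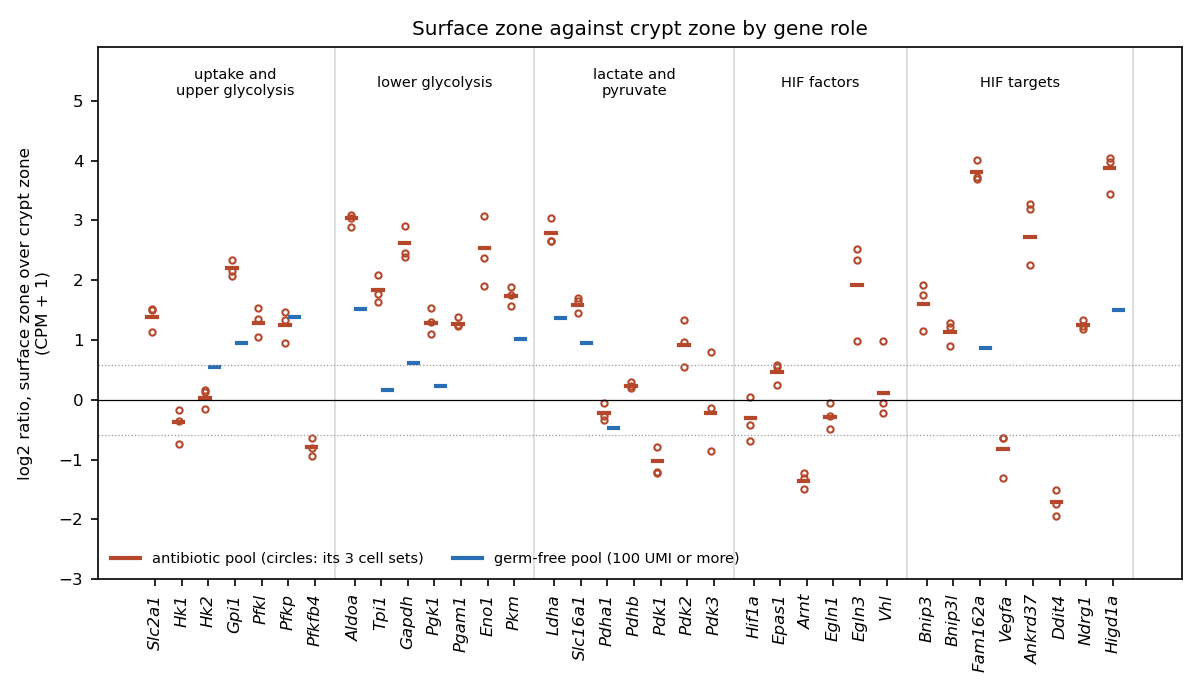
The plot gives the log2 ratio of CPM + 1, surface zone over crypt zone, for the 35 members measured, in order of their role. Red bars are the antibiotic pool, circles its 3 cell sets, blue bars the germ-free pool where the gene had at least 100 UMI there, and dotted lines mark 1.5-fold. All lower glycolytic enzymes lie above the upper dotted line in the antibiotic pool, and Ddit4 and Arnt lie lowest.

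Glucose uptake and the first steps were mixed. Slc2a1, the glucose transporter GLUT1, stood at 153, 133 and 152 CPM in the surface zone of antibiotic cell sets 1, 2 and 3, against 53.3, 60.2 and 52.2 CPM in the crypt zone. The cell sets did not overlap, and the pooled level was 2.65-fold (2.30 to 3.07) higher at the surface, with the counting interval in parentheses here and below. Gpi1, which turns glucose 6-phosphate into fructose 6-phosphate, was 4.65-fold (4.18 to 5.20) higher. The phosphofructokinases Pfkl and Pfkp, which commit sugar to glycolysis, were 2.48-fold and 2.39-fold higher, while Pfkm and Pfkfb3 were too low to be measured. Hexokinase 2 (Hk2), which traps glucose in the cell, stood at 462 CPM at the surface and 453 CPM in the crypt, and Hk1 at 83.3 and 108 CPM. Neither hexokinase was called. Pfkfb4, a bifunctional enzyme that sets the phosphofructokinase activator, was 1.76-fold (1.40 to 2.19) lower at the surface.

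In lower glycolysis the steepest rise was that of Aldoa, the aldolase that splits the sugar, at 769, 953 and 926 CPM in the surface zone of cell sets 1, 2 and 3 against 103, 111 and 111 CPM in the crypt zone. It was 8.26-fold (7.50 to 9.12) higher. Gapdh, the dehydrogenase often used as a reference gene, stood at 892, 1354 and 1267 CPM at the surface against 169, 247 and 167 CPM in the crypt, which is 6.20-fold (5.76 to 6.67) higher. Enolase Eno1 was 6.02-fold (4.95 to 7.38) higher. Pyruvate kinase Pkm reached 449 CPM from 134 CPM, and triose phosphate isomerase Tpi1 419 CPM from 117 CPM. Pgk1 and Pgam1, a kinase and a mutase further down the chain, were 2.47-fold and 2.43-fold higher. Eno1 has a near-identical copy, Eno1b, whose reads the counting could split, and 2 genes of the annotation carry the name Aldoa.

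Past pyruvate, Ldha and Slc16a1 were higher, and the subunits of pyruvate dehydrogenase, which feeds pyruvate to the mitochondrion, were not called. Ldha, the lactate dehydrogenase subunit that favours lactate, stood at 978, 1106 and 1081 CPM in the surface zone of the antibiotic cell sets against 154, 175 and 130.2 CPM in the crypt zone, 6.98-fold (6.43 to 7.59) higher. Slc16a1, the transporter MCT1 that carries lactate and butyrate, was 3.04-fold (2.65 to 3.50) higher. The pyruvate dehydrogenase subunits Pdha1 and Pdhb had log2 ratios of -0.22 and 0.23 and were not called. Of the kinases that switch this enzyme off, Pdk2 was 1.94-fold (1.47 to 2.60) higher and Pdk1 2.10-fold (1.60 to 2.76) lower, and Pdk3 was not called. Ldhb was not measured in this comparison, and neither was the lactate exporter Slc16a3 (MCT4).

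Among HIF factors and regulators, Arnt, the partner subunit, was at 35.2, 30.5 and 30.7 CPM at the surface of the antibiotic cell sets and 88.9, 72.7 and 88.1 CPM in the crypt, 2.62-fold (2.23 to 3.08) lower. Egln3, a prolyl hydroxylase that is itself a HIF target, was 4.69-fold (2.59 to 9.32) higher on 126 and 12 UMI. Hif1a, Epas1 (HIF-2 alpha), Egln1 and Vhl were not called between the end zones. Their levels were not flat. Hif1a in antibiotic cells ran at 118, 266, 223, 117 and 95.0 CPM over zones 1 to 5, with 316, 215 and 282 CPM in zone 2 of the 3 cell sets, each above both end zones of its own set. Hk2 had the same hump at 453, 702, 698, 563 and 462 CPM, and Epas1 was at 81.1, 112, 166, 146 and 112 CPM, highest in zone 3. Over the 37 members with at least 100 UMI on the axis, 21 were highest in zone 5, 7 in zone 1 and 9 in the zones between.

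HIF targets held the steepest gradients of the set. Higd1a, a mitochondrial protein of the respiratory chain's assembly that HIF-1 induces (chr9:121848563-121858362 in GENCODE vM21 on mm10), stood at 1040.2, 1468 and 1326 CPM in the surface zone of the antibiotic cell sets and at 94.8, 91.8 and 79.3 CPM in the crypt zone. It was 14.8-fold (13.3 to 16.5) higher. Fam162a, another mitochondrial HIF-1 target (chr16:36043761-36071594), stood at 772, 916 and 817 against 57.6, 55.8 and 62.4 CPM, 14.3-fold (12.5 to 16.3) higher. Ankrd37 was 9.77-fold (4.63 to 24.7) higher, on 153 and 7 UMI, and its gene overlaps Ufsp2 on the other strand, which has more UMI. Bnip3 and Bnip3l, receptors for mitophagy, were 3.64-fold and 2.23-fold higher, and Ndrg1, a stress-induced differentiation gene, 2.41-fold. The remaining targets went the other way. Ddit4 (REDD1), an inhibitor of mTORC1, was at 7.23, 8.98 and 8.22 CPM at the surface against 30.5, 32.3 and 25.1 CPM in the crypt, 3.54-fold (2.62 to 4.80) lower, and Vegfa, the vascular growth factor, was 1.78-fold lower.

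**Figure D2:**
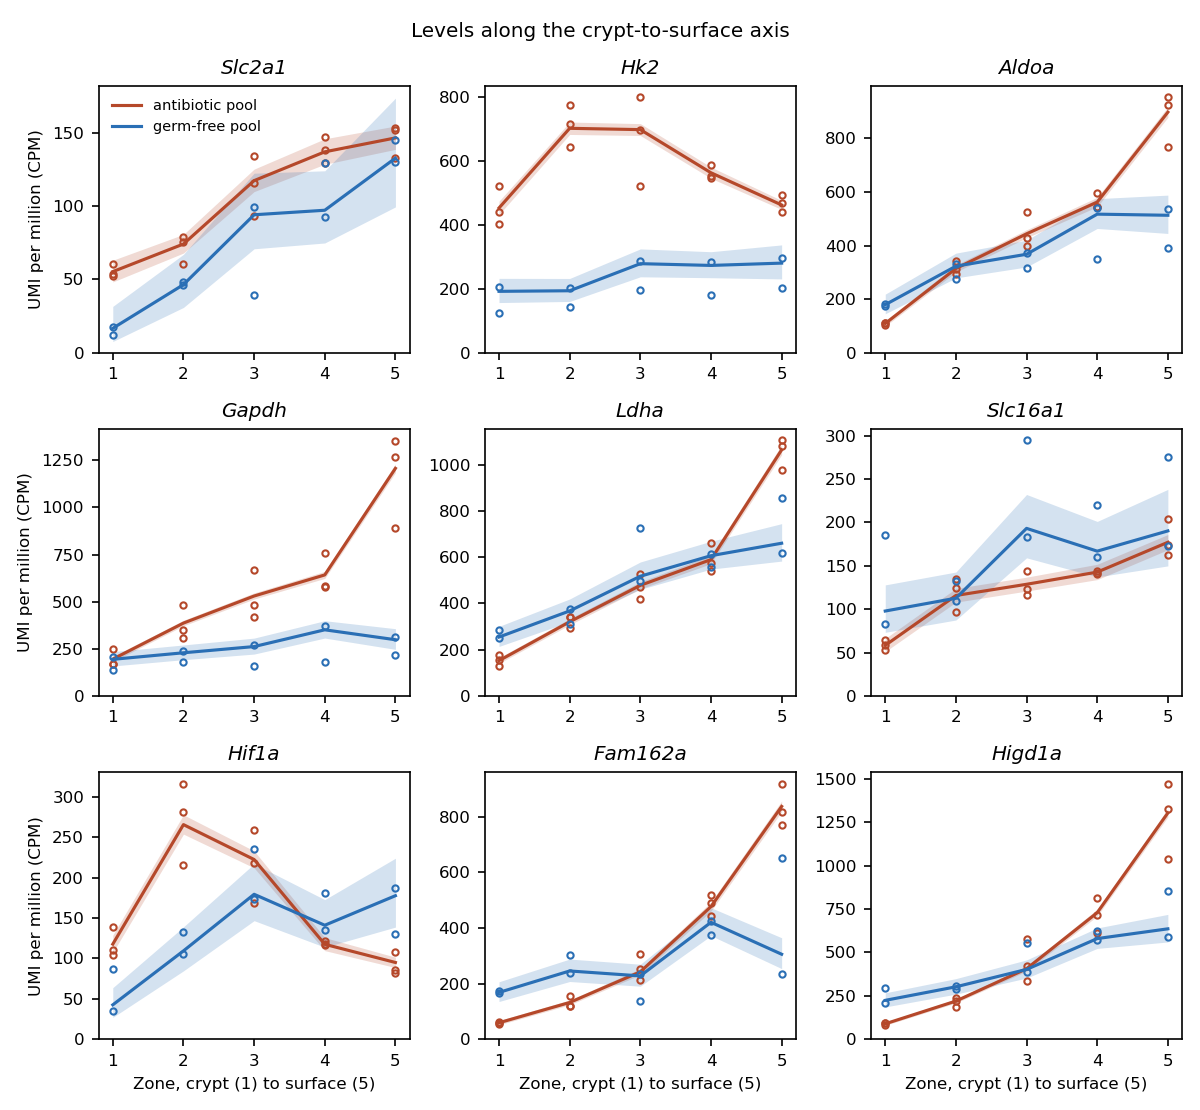
Each panel gives the level of 1 member in CPM over the zones from crypt (1) to surface (5). Lines are pools with shaded 95% Poisson intervals, and circles are the 3 antibiotic and 2 germ-free cell sets. In antibiotic cells Aldoa, Gapdh, Ldha, Fam162a and Higd1a climb most steeply into zone 5, while Hk2 and Hif1a are highest in zones 2 and 3.

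In the germ-free pool the members called higher pointed the same way. All 11 members called higher in the antibiotic pool that had 100 UMI in germ-free cells were above 0 there, as were 463 of 507 such genes overall (91.3%). None of the 5 members called lower had 100 germ-free UMI, so that direction could not be compared, and Pfkfb4, on 6 and 2 UMI, stood at 14.5 and 15.1 CPM at the surface and 0 and 4.34 CPM in the crypt of germ-free cell sets 3 and 4. The median log2 ratio of the 13 members measured was 0.95, against -0.0025 for all genes. Higd1a stood at 856 and 589.8 CPM in the surface zone of germ-free cell sets 3 and 4, against 296 and 211 CPM in the crypt zone, a ratio of 2.85 (2.28 to 3.56). Ldha stood at 856 and 620.1 against 284 and 249.6 CPM and Gapdh at 218 and 315 against 136 and 204 CPM. Slc2a1 was at 133 CPM at the surface and 16.6 CPM in the crypt, on 53 and 9 UMI, short of the minimum of 100. Hif1a ran at 42.5, 109, 179, 141 and 178 CPM over the germ-free zones. Its surface over crypt ratio was 4.19 (2.58 to 7.02), on 71 and 23 UMI, also short of the minimum. Both germ-free cell sets went that way. The surface zones were not equal in their markers: 15 surface markers summed to 18577 CPM there under antibiotics and to 14003 CPM in the germ-free pool, and differences between the pools in these ratios were not tested.

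Further genes of these pathways were called in both directions. Of 16 further glycolytic and sugar genes measured, 7 were higher at the surface and 2 lower, with Hkdc1, a hexokinase relative, at 85.6 against 8.71 CPM and the phosphoglucomutase Pgm1 at 102 against 25.4 CPM. Of 11 further pyruvate and lactate genes, 5 were higher and 2 lower, among them Pdk4, a pyruvate dehydrogenase kinase, at 189 against 14.7 CPM, Bsg, the chaperone of MCT1, at 756 against 167 CPM, and the mitochondrial pyruvate carrier genes Mpc1 and Mpc2 at 237 against 88.1 CPM and 247 against 72.7 CPM. Of 29 further HIF genes, 9 were higher and 10 lower. Ak4, a mitochondrial adenylate kinase, had 175 UMI at the surface and 0 in the crypt, while Rora, a nuclear receptor, stood at 1.56 against 40.8 CPM.

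The crypt zone was shallower (median 3856.5 UMI) than the surface zone (9311 UMI), and with cells of at least 3000 UMI the counts were again 21 and 5, as they were with the deepest copy of each barcode. Median-of-ratios scaling moves all genes by 0.51 log2 units toward the surface and gave 23 higher and 2 lower, with Pfkfb4, Pdk1 and Vegfa no longer called lower. Bnip3 lost its call without any 1 of the cell sets, Egln3 without cell set 1 or 3 and Ankrd37 without cell set 2. UMI were summed, so deeper cells weigh more. Split by region markers as below, the surface zone had a median of 17406 UMI in its proximal and 2430.5 in its distal part. In the crypt zone these were 4551.5 and 4492 UMI. The folds, those of Higd1a and Fam162a included, thus mix zone with region. In distal cells alone 19 of 28 measured members were higher and 2 lower (24.2% and 43.6% of all genes). In proximal cells alone they were 18 and 3 of 28 (29.8% and 40.1%).

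The 250 bases before the starts of the members were also searched for the core of the hypoxia response element, ACGTG or GCGTG, on both strands. The members include genes picked as known HIF targets, so their share of matches says nothing about the gradient from crypt to surface. A palindrome CACGTG counts once per strand. In RefSeq promoter windows (GRCm38.p6) matched by symbol for 36 members (all but Bnip3l, Epas1 and Ndrg1), 33 members (91.7%) held at least 1 match and 25 (69.4%) at least 2. The shares were 41.5% and 18.7% of all 27025 genes with a window, and 62.7% and 32.8% of the 8720 genes with at least 100 UMI here. A gene with several starts was taken at the window with most matches, and a match is a description of letters, not a binding site. Windows of 4 members are printed, none of them overlapping an annotated exon. In the antibiotic pool Ldha and Slc16a1 were higher at the surface, and Hif1a and Hk2 were highest between the ends. In the germ-free pool Ldha and Hk2 were highest in zone 5 and Slc16a1 in zone 3. Hif1a was about equal there in zones 3 and 5. Capitals mark the matches, the last base is the one before the start, and the windows of Ldha, Slc16a1, Hif1a and Hk2 hold 5, 4, 3 and 2 matches.
Ldha, chr7:46845554-46845803, plus strand: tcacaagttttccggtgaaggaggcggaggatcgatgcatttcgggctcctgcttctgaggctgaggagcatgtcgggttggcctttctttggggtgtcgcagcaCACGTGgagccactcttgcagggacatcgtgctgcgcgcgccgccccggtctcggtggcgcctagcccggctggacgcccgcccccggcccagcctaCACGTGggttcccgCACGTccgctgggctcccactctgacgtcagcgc
Slc16a1, chr3:104638414-104638663, plus strand: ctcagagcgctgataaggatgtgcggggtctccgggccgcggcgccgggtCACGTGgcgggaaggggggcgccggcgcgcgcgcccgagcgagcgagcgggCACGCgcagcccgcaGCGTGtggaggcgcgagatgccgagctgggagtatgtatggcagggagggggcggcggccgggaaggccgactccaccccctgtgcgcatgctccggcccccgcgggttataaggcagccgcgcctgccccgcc
Hif1a, chr12:73907617-73907866, plus strand: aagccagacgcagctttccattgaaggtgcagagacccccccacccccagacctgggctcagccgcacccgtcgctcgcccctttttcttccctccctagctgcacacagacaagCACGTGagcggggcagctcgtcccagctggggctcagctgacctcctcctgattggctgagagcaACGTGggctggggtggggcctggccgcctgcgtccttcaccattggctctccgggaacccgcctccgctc
Hk2, chr6:82774455-82774704, minus strand: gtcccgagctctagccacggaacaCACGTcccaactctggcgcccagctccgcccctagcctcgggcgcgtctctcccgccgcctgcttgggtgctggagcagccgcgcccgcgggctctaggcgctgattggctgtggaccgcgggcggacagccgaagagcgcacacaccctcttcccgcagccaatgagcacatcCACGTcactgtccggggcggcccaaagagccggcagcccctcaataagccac
Aldoa, with the steepest rise among the glycolytic enzymes, held 1 match at most, and Gpi1 and Tpi1, both higher at the surface, held none of these letters in the window, as did Vhl. Of the 5 members lower at the surface, Ddit4 and Vegfa held 2 matches at most, and Pdk1, Arnt and Pfkfb4 held 1.

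Along the colon, Hif1a was higher in distal cells and the HIF targets Fam162a, Higd1a and Ndrg1 were lower. Cells were ranked within each zone by distal over proximal marker genes and split into 3 equal parts. The most distal part was set against the most proximal part, so both hold equal numbers of cells from every zone. UMI were summed over these cells, so deeper cells weigh more. Near the surface the proximal cells were the deeper ones, as given below, so values over all zones mix region with zone. Summed over all zones, other lists differed between the parts. The 15 surface markers summed to 5829 CPM in distal and 9996 CPM in proximal cells and 10 cell cycle genes to 386 and 215 CPM. The part of depth and of these lists in the values over all zones was not tested. In antibiotic cells, 8 of 36 members measured were higher in the distal part and 5 were lower. Over all 10183 genes measured, 14.4% were higher and 8.82% lower, and the median log2 ratio was -0.02 for the members and 0.13 for all genes. No enzyme of lower glycolysis was called, and their log2 ratios lay between -0.43 (Aldoa) and 0.23 (Pgam1). Of the 6 HIF factors and regulators 3 were higher and none lower, and of the 8 targets 1 was higher and 4 lower. The mitophagy receptors Bnip3 and Bnip3l were not called, with log2 ratios of 0.52 and -0.04.

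Hif1a (chr12:73901375-73947530) stood at 313, 281 and 286 CPM in the distal part of antibiotic cell sets 1, 2 and 3, against 63.3, 66.6 and 77.1 CPM in the proximal part. The cell sets were far apart, and the pooled level was 4.10-fold (3.82 to 4.40) higher in distal cells. Germ-free cell sets 3 and 4 held 210.2 and 224 CPM in distal and 80.6 and 74.0 CPM in proximal cells, a ratio of 2.98 (2.29 to 3.89). By zone, distal antibiotic cells held 136, 366, 363, 270.2 and 181 CPM from crypt to surface and proximal cells 102, 87.2, 82.3, 57.7 and 56.5 CPM, so the distal cells held the hump of Hif1a in the middle zones and the proximal cells did not. Its antisense gene Gm15283 was at 24.9 CPM over all cells, and the labels do not say whether counting used strand. The other members higher in distal cells were closer to the limit: Ddit4 at 2.30-fold, Pdk1 at 1.73-fold, Hk2 at 1.60-fold, Egln3 at 1.62-fold, and Hk1, Arnt and Pfkfb4 between 1.55-fold and 1.56-fold.

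Fam162a was the member with the largest proximal excess. It stood at 135, 123 and 123 CPM in the distal part of the antibiotic cell sets against 568, 717 and 616 CPM in the proximal part, 5.10-fold (4.81 to 5.40) lower in distal cells. Higd1a stood at 271, 278 and 301 against 728, 1007 and 922 CPM, 3.18-fold (3.05 to 3.30) lower, and Ndrg1 at 64.6, 35.0 and 40.8 against 109, 128 and 161 CPM, 3.17-fold (2.87 to 3.51) lower. In none of these did the cell sets overlap. All 3 went the same way in the germ-free cell sets: Fam162a at 210.2 and 110.0 against 504 and 359 CPM, Higd1a at 452 and 234 against 655 and 498 CPM and Ndrg1 at 31.1 and 40.0 against 161 and 127 CPM. By zone, proximal antibiotic cells held 116, 416, 632, 953 and 1538 CPM of Higd1a and distal cells 81.7, 124, 261, 367 and 733 CPM, so both parts climbed toward the surface from different levels. Ndrg1 in zone 1 stood at 58.5 CPM in distal and 41.8 CPM in proximal cells, the 1 antibiotic zone where the order was the other way. Gpi1 and Vegfa were 1.59-fold (1.51 to 1.68) and 1.55-fold (1.33 to 1.80) lower in distal cells.

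**Figure D3:**
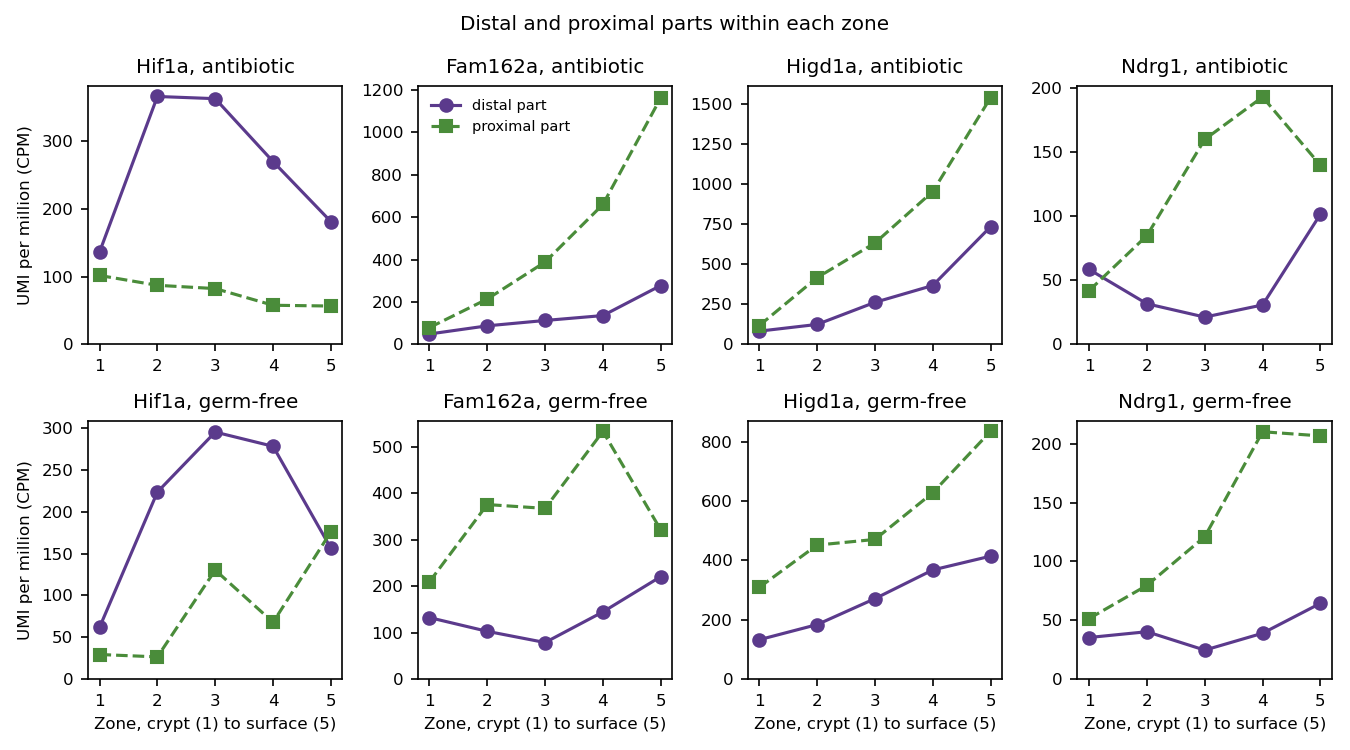
Panels give the pooled level in CPM of Hif1a, Fam162a, Higd1a and Ndrg1 over the zones from crypt (1) to surface (5), in the distal part (solid line, circles) and the proximal part (dashed line, squares) of each zone. The upper row is the antibiotic pool and the lower row the germ-free pool. Hif1a is above in distal cells in every antibiotic zone and in germ-free zones 1 to 4, and Fam162a and Higd1a are below in distal cells in every zone of both pools.

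Among further pathway genes, 1 of 18 glycolytic and sugar genes was higher in distal cells and 5 were lower, with the muscle-type enolase Eno3 at 85.6 against 7.07 CPM in distal against proximal cells and Hkdc1 at 14.4 against 85.5 CPM. Of 11 pyruvate and lactate genes 2 were higher and 2 lower, with Pdk4 at 17.0 against 173 CPM and pyruvate carboxylase Pcx at 67.6 against 22.8 CPM. Of 30 HIF genes 2 were higher and 7 lower, with the nucleotidase Nt5e at 45.9 against 2.97 CPM and the carbonic anhydrases Car12 and Car9 at 10.7 against 56.2 CPM and 13.6 against 23.4 CPM. Depth differed between the parts near the surface: in antibiotic zones 4 and 5 distal cells had medians of 2059 and 2430.5 UMI and proximal cells 14757 and 17406 UMI. In zones 1 to 3 alone, 7 members were higher and 4 lower with a median of 0.46. Over all genes measured in these zones, 9.55% were higher and 7.13% lower, with a median of 0.11. Ddit4, Pdk1, Arnt, Pfkfb4 and Gpi1 were no longer called there. Gapdh and Ldha had log2 ratios of 0.52 and 0.46 in place of -0.33 and -0.27, with no call in either. The calls of Hif1a, Fam162a, Higd1a and Ndrg1 were kept in all 17 alternatives, and the other 9 were each lost in at least 3. With median-of-ratios scaling, which moves all genes by 0.14 log2 units toward proximal, 3 members were higher and 7 lower, and per-cell means gave 7 and 3. Leaving out cell set 2 left 5 higher (Hk2, Hk1 and Pfkfb4 lost their calls), and the deepest copy of each barcode gave 8 and 5 again.

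Goblet-gated cells (at least 1% of UMI in 10 goblet markers and at least 3 of the markers found) held less RNA of many of the members than other cells. In the antibiotic pool 96 cells passed the gate and 3298 were other cells, and 79 further cells lay between 0.5% and 1% of UMI. Of 37 members measured, 3 were higher in goblet-gated cells and 18 were lower. Over all 10860 genes, 18.1% were higher and 17.8% lower, and the median log2 ratio was -0.50 for the members and 0.06 for all genes. Goblet-gated cells also had fewer surface markers (1838 against 8294 CPM over 15 genes). When the other cells were weighted to the zones of the goblet-gated cells, 3 members were higher and 7 lower with a median of -0.18. In that weighting 12.0% of all genes were higher and 22.8% lower, with a median of -0.14, so the members' values lay near those of all genes.

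The members still lower after weighting were led by Slc16a1. It stood at 27.1, 27.1 and 30.0 CPM in goblet-gated cells of antibiotic cell sets 1, 2 and 3, against 138, 136 and 129 CPM in other cells, 4.72-fold (3.38 to 6.83) lower, with a log2 ratio of -2.20 that weighting moved to -1.70. Pkm stood at 54.1, 106 and 101 against 294, 324 and 316 CPM, 3.44-fold (2.86 to 4.20) lower, and went from -1.77 to -1.13. Pfkp went from -1.75 to -1.10, Higd1a from -2.44 to -0.75 and Pfkl from -1.16 to -0.73. Hif1a, at 105 against 166 CPM, went from -0.65 to -0.90. Vhl was the seventh, on 5 goblet UMI, with an unweighted ratio of 0.597 (0.192 to 1.41). Ankrd37 and Egln3, lower before weighting, had only 3 and 5 goblet UMI, and Egln3 a ratio of 0.440 (0.142 to 1.04). Fam162a, Ldha, Gpi1, Ankrd37, Egln3, Pgam1, Slc2a1, Pgk1 and Epas1 lost the call under weighting, and Aldoa and Eno1 changed sign, to 0.28 and 0.10. Gapdh and Tpi1, called neither before nor after weighting, also changed sign, from -0.44 to 0.58 and from -0.50 to 0.21.

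**Figure D4:**
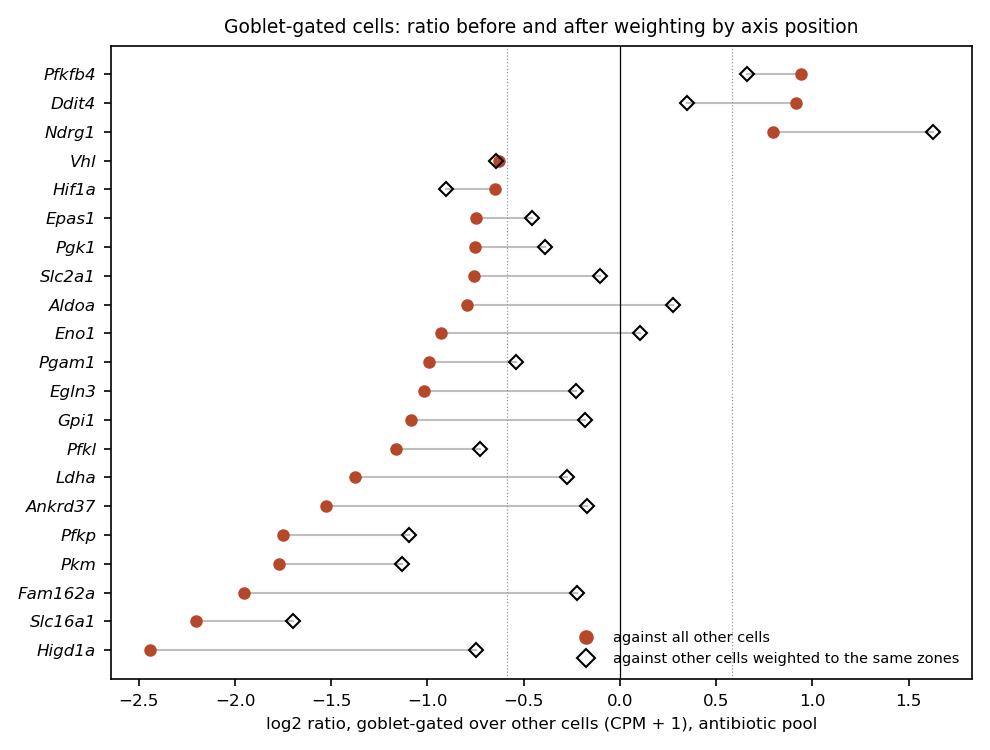
The plot gives the log2 ratio of CPM + 1, goblet-gated over other cells of the antibiotic pool, for the 21 members called. Filled circles use all other cells, open diamonds use other cells weighted to the zones of the goblet-gated cells, and dotted lines mark 1.5-fold. Weighting brings most of the 18 lower members toward 0, leaves 7 of them below the lower dotted line, with Slc16a1, Pkm and Pfkp lowest, and moves Ndrg1 up.

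The other direction was short. Ndrg1 stood at 169, 189.8 and 212 CPM in goblet-gated cells of the antibiotic cell sets and at 114, 102 and 116 CPM in other cells, 1.74-fold (1.52 to 1.99) higher, and at 191 and 176 against 91.4 and 99.7 CPM in the germ-free cell sets. Weighting moved its antibiotic log2 ratio from 0.80 to 1.63. Pfkfb4 and Ddit4 were 1.96-fold (1.45 to 2.60) and 1.94-fold (1.36 to 2.68) higher, and Ddit4 lost that call under weighting. Bnip3 gained a call under weighting at 9.95 against 3.69 CPM, on only 12 goblet UMI. Hk2 stood at 710.3, 565 and 1061 CPM in goblet-gated and 555, 609 and 578 CPM in other cells of cell sets 1, 2 and 3, with no common direction. In germ-free cells, where 78 cells passed the gate, 13 of the 14 measured members that were lower in the antibiotic pool were below 0, against 90.3% of such genes overall. Slc16a1 stood there at 47.8 and 33.7 CPM in goblet-gated and 213 and 141 CPM in other cells.

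Of further genes, 3 of 18 glycolytic and sugar genes measured were higher in goblet-gated cells and 8 lower, with Hkdc1 at 4.15 against 58.4 CPM and the glycerol phosphate dehydrogenase Gpd2 at 21.6 against 77.7 CPM in goblet-gated against other cells. Of 11 pyruvate and lactate genes only Pdk4 was called, at 9.12 against 108 CPM. Of 31 HIF genes 3 were higher and 10 lower, with Hif3a, a further alpha subunit, at 14.9 against 2.99 CPM and the ubiquitin ligase Siah2 at 49.8 against 12.6 CPM. Goblet-gated cells held 6028 CPM of 13 immediate-early genes against 3639 CPM in other cells, whose part in these results was not tested. Without cell set 3, 5 members were higher and 19 lower, and the deepest copy of each barcode gave 3 and 18.

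Between conditions few members were called. Of 38 members measured over all cells, 1 was higher and 4 were lower in germ-free cells. Over all 11059 genes measured, 6.75% were higher and 7.59% lower, and the median log2 ratio, germ-free over antibiotic, was -0.20 for the members and 0.03 for all genes. The members lower in germ-free cells were Hk2, Gapdh, Eno1 and Higd1a, and the higher one was Ankrd37. Condition and library batch cannot be told apart in any of these values.

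The antibiotic cell sets 1, 2 and 3 held 559.7, 607 and 588 CPM of Hk2, and germ-free sets 3 and 4 held 176 and 264 CPM, 2.33-fold (2.17 to 2.50) lower. Gapdh stood at 513, 749.7 and 642 CPM and 171 and 277 CPM in the same order, 2.47-fold (2.31 to 2.65) lower. Eno1 stood at 64.1, 96.6 and 89.5 CPM and 14.9 and 33.7 CPM, 2.76-fold (2.26 to 3.42) lower, and Eno1b, its near-identical copy, at 4.33 CPM under antibiotics and 1.61 CPM in the germ-free pool. Any call in this comparison requires that the cell sets of the pools do not overlap. The calls of Hk2, Gapdh and Eno1 were kept in all 17 alternatives. Higd1a stood at 542, 656 and 602 CPM and 471 and 378 CPM, 1.56-fold (1.47 to 1.65) lower, and Ankrd37 at 8.15, 10.3 and 8.08 CPM and 24.8 and 12.6 CPM, 1.61-fold (1.15 to 2.21) higher on 44 germ-free UMI. Each of the last pair lost its call in 7 of 17 alternatives.

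**Figure D5:**
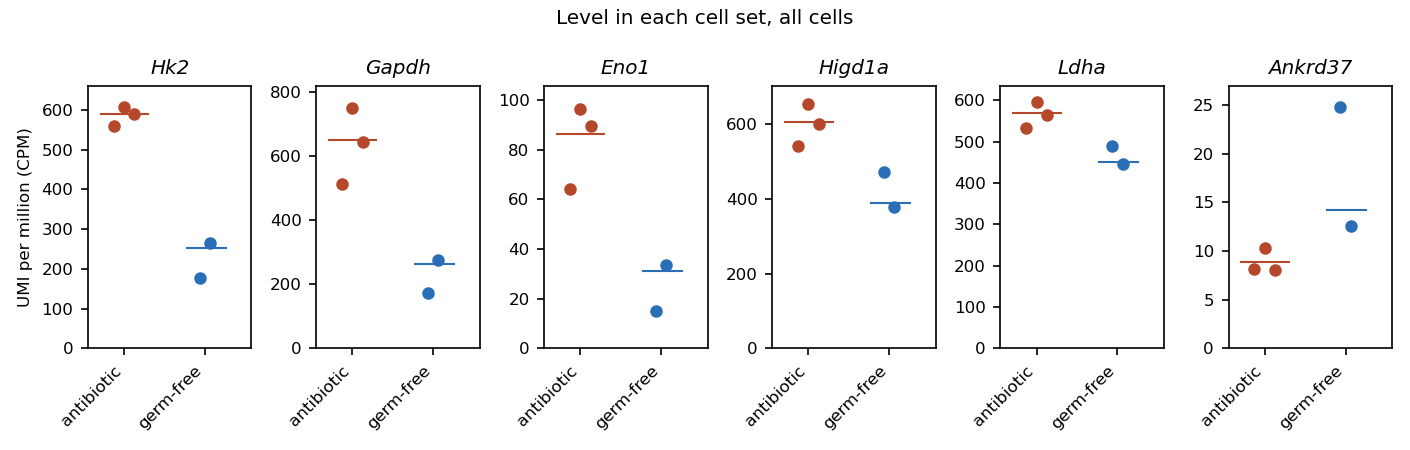
The panels give the level in CPM of 6 members over all cells, with points for antibiotic cell sets 1 to 3 (red) and germ-free cell sets 3 and 4 (blue) and lines for the pools. Hk2, Gapdh and Eno1 lie lower in both germ-free sets, and Ldha, which was not called, lies closer.

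The differences were not spread evenly over the axis. In the crypt zone Gapdh stood at 195 CPM under antibiotics and 194 CPM in the germ-free pool, and at 1207 and 298 CPM in the surface zone. Hk2 was apart in both, at 453 and 192 CPM in the crypt zone and 462 and 280.4 CPM in the surface zone. Higd1a crossed over, at 88.1 and 223 CPM in the crypt zone and 1304 and 636 CPM in the surface zone. Eno1 stood at 27.1 and 11.1 CPM in the crypt zone and at 163 and 45.1 CPM in the surface zone, with only 6 and 18 germ-free UMI in these zones. With equal weight for each zone and the goblet gate, 1 member was higher and 6 were lower. In that weighting 4.33% of all genes were higher and 9.96% lower.

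Most members of glycolysis were not called. Of the 38 members measured, 28 had log2 ratios below 0 and 10 above 0. Antibiotic over germ-free, Fam162a and Pfkfb4 were at 1.49, Slc2a1 at 1.47, Gpi1 at 1.40 and Tpi1 at 1.28. In each of these both germ-free cell sets lay below every antibiotic cell set, but the pools were less than 1.5-fold apart. Aldoa stood at 459, 546 and 509 CPM in the antibiotic and 293 and 378 CPM in the germ-free cell sets, Ldha at 533, 597 and 565 and 489 and 445 CPM, Pkm at 285, 316 and 309 and 161 and 244 CPM, and Pgk1 at 137, 137 and 122 and 206 and 134 CPM. Hif1a stood at 154, 161 and 169 and 156 and 122 CPM, with germ-free over antibiotic at 0.777 (0.70 to 0.860), which is no call, and Epas1 had a ratio of 0.745. Vegfa had a ratio of 0.497, but germ-free cell set 3 at 37.2 CPM lay above all antibiotic sets and cell set 4 at 12.6 CPM below them. Slc16a3 was not measured, with 25 antibiotic and 2 germ-free UMI.

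Of 18 further glycolytic and sugar genes measured, 1 was higher and 4 were lower in germ-free cells, with Hkdc1 at 24.2 against 56.3 CPM in germ-free against antibiotic cells and Pfkfb2, a relative of Pfkfb4, at 48.7 against 32.1 CPM. Of 11 pyruvate and lactate genes 2 were lower, Pdk4 at 26.4 against 105 CPM and Bsg at 276 against 465 CPM. Of 31 HIF genes 2 were higher, with the transferrin receptor Tfrc at 290.2 against 156 CPM, and 1 was lower. Other lists differed between the pools as well: 15 surface markers summed to 8059 CPM under antibiotics and 5536 CPM in the germ-free pool, 10 goblet markers to 1422 and 5828 CPM, 10 proximal markers to 3452 and 1798 CPM, and 13 immediate-early genes to 3714 and 2667 CPM, and Xist was at 209 and 659 CPM. Their part in the condition values was not tested, except that among cells with a Y-linked UMI and no Xist UMI 1 member was higher and 5 lower. Among those cells 8.86% of all genes were higher and 10.1% lower. The count was 6 higher and 12 lower when germ-free cell set 4 was left out, and 0 and 7 when set 3 was. The shares of all genes higher and lower were 18.9% and 22.7% in the first case and 6.94% and 8.24% in the second. Mitochondrial genes held 13.0%, 11.7% and 12.5% of UMI in antibiotic cell sets 1, 2 and 3 and 18.6% and 18.7% in germ-free sets 3 and 4. Gm42418, AY036118 and Lars2 together held 10.0%, 9.04% and 11.4%, and 2.12% and 5.45%, in the same order. The CPM totals include both. Totals without mitochondrial genes gave 2 higher and 3 lower, and totals without Gm42418, AY036118 and Lars2 0 and 7. Per-cell means gave 3 and 6, and the deepest copy of each barcode 1 and 4.

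Because the tissue was dissociated warm, members were also set against 13 immediate-early genes such as Fos and Jun, which dissociation is known to induce. Cells of the antibiotic pool were split into 3 equal parts by these genes within each zone. Of 36 members measured, 9 were higher in the upper part than in the lower part and none was lower. Over all 10137 genes measured, 11.6% were higher and 3.22% lower, and the medians were 0.36 for the members and 0.11 for all genes. Hk2 stood at 671, 780.3 and 782 CPM in the upper part of cell sets 1, 2 and 3, against 299, 259 and 264 CPM in the lower part, 2.80-fold (2.67 to 2.94) higher. Slc2a1 stood at 125, 132 and 136 against 51.2, 66.0 and 63.7 CPM, 2.16-fold (1.95 to 2.40) higher. For both the cell sets lay far apart, and these were the members called in all 14 alternatives. The germ-free pool had Hk2 at 309 against 106 CPM and Slc2a1 at 97.9 against 45.0 CPM. The pooled antibiotic level of Hk2 was 759 CPM in the upper and 271 CPM in the lower part, above the germ-free level in each. The parts were cut within each pool and are not matched: the immediate-early genes summed to 5738 CPM in the upper part under antibiotics and 4252 CPM in that of the germ-free pool, and to 724 and 391 CPM in the lower parts.

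The remaining 7 were Ddit4, Pdhb, Hif1a, Vegfa, Higd1a, Gapdh and Eno1, between 1.53-fold and 1.85-fold higher. Ldha, Aldoa and Fam162a, with the steep surface gradients, had log2 ratios of 0.42, 0.55 and 0.37 and were not called, and Pfkp was at -0.01. Of the further lists, 1 of 18 glycolytic, 3 of 11 pyruvate and lactate and 7 of 29 HIF genes were higher and none lower. The upper part was deeper (median 11180 against 2326.5 UMI). Other lists moved with the split: 6 epithelial markers summed to 8100.4 CPM in the upper and 4951 CPM in the lower part, 10 cell cycle genes to 351 and 228 CPM, and 15 surface markers to 8977 and 7125 CPM, and their part in the 9 calls was not tested. With cells of at least 3000 UMI 8 members were higher, median-of-ratios scaling, which moves all genes by 0.11 log2 units toward the lower part, gave 6, and the deepest copy of each barcode gave 10.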

How the data were processed

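The authors deposited 1 matrix of natural log values, log(1 + UMI scaled to 10000 per cell), for 32285 genes and 4183 cells of 2 pools. Per the submitters' processing notes, Cell Ranger 7.0.0, kallisto, bustools and mm10 were used, with roles not given in the sources used here. Whole UMI were recovered from each cell's smallest step: 100% of 9481333 values above 0 were whole within 0.01, the summed values per cell were 10000, and no value column was unused.

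UMI were summed over cells of a pool or cell set and divided by their total (CPM). Log2 ratios used CPM with a pseudocount of 1. Levels carry exact Poisson intervals and ratios conditional binomial (Clopper-Pearson) intervals, both 95% and for counting error only, and 3 UMI are worth 0.0821 CPM in the antibiotic and 0.967 CPM in the germ-free pool. With 1 pool per condition there was no test. In the condition comparison a call needed every germ-free cell set on 1 side of every antibiotic cell set, and elsewhere the same direction in all 3 antibiotic cell sets. Germ-free values within the pool were not called. Gates (goblet, enteroendocrine, tuft) needed a UMI in at least 3 markers of their list, and the goblet gate also needed at least 1% of UMI in its markers. No doublet caller was run, and doublets were not removed here.

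The members and lists were chosen with earlier results of these data known. Named genes were the called members, up to 8 per direction by size of the log2 ratio, the 8 measured members with the highest CPM, and up to 6 called genes per further list; other members are named to account for all 39. Alternatives were other scalings, thinning to 1000 UMI, cell filters, gates, limits and leaving out each cell set. The deepest copy of each barcode, cells of at least 3000 UMI and zones 1 to 3 were added after seeing the data. Scripts ran in Python 3.11.15 with NumPy 2.4.6, SciPy 1.17.1, pandas 2.3.3 and matplotlib 3.10.9 and were tested on simulated data.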

Additional observations from a re-analysis of the deposited data

Results flagged for a closer look

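For 10 members with at least 100 antibiotic and 20 germ-free UMI, every antibiotic cell set moved one way and both germ-free cell sets the other, which is what marked them. The difference between the pools was not tested, and of these 10 only Eno1 was called in the antibiotic pool. The same pattern stood on fewer germ-free UMI for Pfkfb4 from crypt to surface (6 and 2) and for Ddit4 (9 and 10) and Bnip3 (12 and 3) by immediate-early genes, of which Pfkfb4 and Ddit4 were called in the antibiotic pool. All values are log2 ratios of CPM + 1. From crypt to surface, Hk1 was at -0.37 in the antibiotic and 0.82 in the germ-free pool, and Egln1 at -0.29 and 0.43, the latter on 14 germ-free UMI in each zone. Between distal and proximal parts, antibiotic and germ-free values were -0.18 and 0.094 for Tpi1, -0.33 and 0.12 for Gapdh, -0.27 and 0.12 for Ldha, -0.17 and 0.18 for Pdhb, and 0.12 and -0.38 for Pdk3. Between the upper and lower parts of immediate-early genes they were 0.41 and -0.38 for Pgk1, 0.61 and -0.38 for Eno1, and 0.19 and 0.00039 for Pkm. Germ-free UMI were few for Pdk3 (7 and 13) and Eno1 (39 and 26).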

How the results depend on the processing

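Calls of members kept in every alternative were 3 of 5 between conditions (Hk2, Gapdh, Eno1), 13 of 26 from crypt to surface, 4 of 13 along the colon, 4 of 21 in goblet-gated cells (Pfkl, Pkm, Slc16a1, Higd1a) and 2 of 9 by immediate-early genes. Between conditions, the number of members higher was 2 without mitochondrial genes in the total, 3 with per-cell means, and 0 with thinning to 1000 UMI, with cells of at least 1000 UMI and at most 15% mitochondrial, at 2-fold, at a pseudocount of 10 and without Gm42418, AY036118 and Lars2 in the total, where 7 were lower; the median was -0.095 without mitochondrial genes, -0.15 with that stricter cell filter, -0.28 without the 3 named genes and -0.30 in cells with a Y-linked UMI and no Xist. Leaving out 1 cell set gave 0 to 6 higher, 4 to 12 lower and medians of -0.34 to -0.16. From crypt to surface, the number lower was 2 with median-of-ratios scaling, 0 when thinned, 3 at 2-fold, 2 in distal and 3 in proximal cells, and the median was 1.76 with median-of-ratios scaling, 0.99 at a pseudocount of 10 and 0.83 with 3 zones in place of 5; Pdk1 turned to 0.32 when thinned. Along the colon, the number higher and lower was 3 and 7 with median-of-ratios scaling (median -0.17), 7 and 3 with per-cell means (Pdk1 turned to -0.021), 1 and 3 when thinned, 2 and 3 at 2-fold, 4 and 4 at a pseudocount of 10, 7 and 10 for parts cut over all cells (median -0.18), 3 and 4 by distal Hox genes (median 0.15), 3 and 3 with a single limit in place of 3 parts, and 5 and 3 with at least 3000 UMI (median 0.098); the median was 0.46 in zones 1 to 3 and 0.099 with no minimum of UMI, and leaving out 1 cell set gave 5 to 6 higher. In goblet-gated cells, the number higher was 1 when thinned (median -0.91), 0 at 2-fold with 10 lower, 5 at 0.5% of UMI, and 2 to 5 (medians -0.63 to -0.53) without 1 cell set; weighting to zones gave 7 lower and a median of -0.18, and the stricter cell filter a median of -0.64. There Egln3 turned to 0.46 and Ddit4 to -4.19 when thinned, Pfkfb4 to -0.0016 and Vhl to 0.12 at 3% of UMI, and Aldoa to 0.28 and Eno1 to 0.10 when weighted. By immediate-early genes, the number higher was 5 when thinned (median 0.48) and 2 at 2-fold, and the median was 0.25 with median-of-ratios scaling, 0.24 with the stricter cell filter and 0.28 to 0.39 without 1 cell set. The cause of each change was not tested, except that thinning and the 2-fold limit leave fewer UMI or a stricter call by construction. No paired analysis was possible because no result came from a test and the conditions share no library number. Within the antibiotic pool each cell set held both sides of a comparison, and calls compared them set by set.

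The pools differ in library batch, depth, mitochondrial share and cell mix, and 810 barcodes occur in more than 1 antibiotic cell set. Germ-free cells held 3100880 UMI, so germ-free values within zones rest on few UMI. Members under 100 UMI could not be read, and Slc16a3 was under that limit in every main comparison. Position along the crypt and the colon was inferred from marker genes, not dissected, and the sort fixed the crypt and surface shares.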
